A study of Mus musculus with 22 samples.

Results

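The 9 genes described here encode the core of the JAK-STAT pathway and its feedback inhibitors: the kinases Jak1, Jak2 and Tyk2, the transcription factors Stat3, Stat5a and Stat5b, and the suppressor of cytokine signalling (SOCS) family members Socs1, Socs3 and Cish. They were chosen by name for their place in the pathway and not by a measured value, although earlier results of these data were known. They are 9 of the 21853 protein-coding genes with an annotated transcription start site (TSS). For each gene, every peak of histone H3 acetylated at lysine 27 (H3K27ac) that overlapped the gene body or lay within 20 kb of it was collected. A TSS peak is a peak of which any part lay within 2.5 kb of the start of a protein-coding transcript. Coordinates are in GRCm38 and are counted from 1.

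The series lists 22 samples in 11 groups, of which the 3 H3K27ac chromatin immunoprecipitation sequencing (ChIP-seq) libraries of BcorΔE9-10 KL cells were analysed. KL cells are myeloid progenitors that lack lineage markers and Sca1 and carry cKit, sorted here from the bone marrow of male C57BL/6 mice of genotype scl-Cre-ERT +; Bcorfl/y, 20 weeks after tamoxifen at 1 mg for 5 days. The mice were 3 to 6 months old when they received tamoxifen, which activates a Cre recombinase driven by a stem cell promoter and enhancer of Scl and so deletes exons 9 and 10 of Bcor, a gene on the X chromosome, in stem cells and their progeny. Per the methods of the study the KL cells came from 3 BcorΔE9-10 mice. All 3 libraries carry the deletion. The series lists no H3K27ac library of BcorWT cells, so no value below compares genotypes.

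H3K27ac marks active promoters and enhancers. In the JAK-STAT pathway a cytokine receptor without kinase activity of its own binds JAK kinases, which phosphorylate STAT proteins, and these then enter the nucleus and bind DNA. SOCS proteins, whose genes are among the targets of STATs, bind the receptor or the kinase and end the signal. Myeloid progenitors depend on cytokines that signal in this way, such as interleukin 3 and the colony-stimulating factors.

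Depth recovered from the peak lists was 18.0, 18.9 and 19.3 M reads in replicates 1, 2 and 3, and the lists held 23410, 25963 and 23758 peaks. The least number of fragments at a listed summit was 8, 8 and 9, so weaker acetylation was not detectable at this depth. Fold enrichment, the authors' ratio of summit fragments to local background, is not scaled between libraries, and its median over genes with a TSS peak was 9.07, 9.26 and 10.7. Percentiles within each library are therefore given beside it. All 8 markers of myeloid progenitors (such as Kit, Myb and Mpo) had a TSS peak in each library. Of 6 mature neutrophil markers only Ngp had one, in replicate 2 alone, and none of 6 non-haematopoietic markers had one in any library. Of 5 erythroid and megakaryocyte markers, Itga2b had a TSS peak in all 3 libraries, Klf1 in 2, and Gata1, Epor and Pf4 in none.

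STAT dimers bind the palindrome TTCNNNGAA, which reads the same on both strands. This motif was searched in the RefSeq promoter window of each gene (GRCm38.p6, 250 bases before to 50 after the start). All 9 genes matched, with 11 windows, and the motif was found at Socs3 and Cish and in none of the 9 windows of the other 7 genes. Over all 32851 promoter windows, 8.30% held at least 1 match and 0.457% held 2 or more, as Cish does. A match describes the letters only and does not show binding. The stretches below are shown for the 2 promoters with the strongest acetylation (Jak1 and Stat3), for Socs1, and for the 2 SOCS family promoters with the motif, which is in capitals. They run 5′ to 3′ on the strand of the gene and stop before any annotated exon, except at Cish, where the motifs lie at the start of the transcript and only the site is shown.

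Jak1 (chr4:101265283-101265473, minus strand): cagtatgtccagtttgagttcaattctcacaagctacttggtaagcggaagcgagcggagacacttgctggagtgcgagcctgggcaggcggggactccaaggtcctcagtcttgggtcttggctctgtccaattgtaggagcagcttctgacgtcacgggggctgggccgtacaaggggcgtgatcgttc
Stat3 (chr11:100939541-100939790, minus strand): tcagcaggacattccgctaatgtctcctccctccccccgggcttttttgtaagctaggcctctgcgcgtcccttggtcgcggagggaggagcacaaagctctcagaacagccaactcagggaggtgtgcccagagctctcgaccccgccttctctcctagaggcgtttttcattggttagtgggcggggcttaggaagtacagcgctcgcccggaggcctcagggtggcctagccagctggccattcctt
Socs1 (chr16:10785537-10785786, minus strand): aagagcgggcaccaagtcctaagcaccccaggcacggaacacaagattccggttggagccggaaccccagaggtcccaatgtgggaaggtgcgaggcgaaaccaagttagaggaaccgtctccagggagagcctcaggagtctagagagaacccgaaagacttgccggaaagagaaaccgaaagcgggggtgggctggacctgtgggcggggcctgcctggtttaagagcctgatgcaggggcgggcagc
Socs3 (chr11:117969452-117969616, minus strand): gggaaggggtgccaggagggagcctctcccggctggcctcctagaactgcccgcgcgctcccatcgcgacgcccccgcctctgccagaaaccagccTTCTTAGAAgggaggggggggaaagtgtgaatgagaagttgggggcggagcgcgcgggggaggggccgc
Cish (chr9:107296655-107296682, plus strand): agttTTCCTGGAAagTTCTTGGAAatct

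At Socs3 the motif begins 154 bases before the RefSeq start. At Cish the first match begins on the start base itself and the next begins 11 bases further on. GC content of the windows was highest at the 5′ start of Stat5b (82.7%, with 50 CpG dinucleotides) and at Jak2 (81.0%, with 44). The medians over all windows were 52.7% and 7. It was lowest at the internal start of Stat5b (47.3%, with 7), followed by Cish (53.3%, with 11).

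6 of the 9 genes had a TSS peak in all 3 libraries (Jak1, Jak2, Stat3, Stat5a, Stat5b and Socs1), beside 43.3% of all protein-coding genes (9471 of 21853). Among the kinases these were 2 of 3, among the STATs 3 of 3, and among the SOCS family 1 of 3. The median of the mean TSS fold enrichment over the 6 genes was 13.3, beside 10.2 over all genes with a TSS peak in 3 libraries. Tyk2 and Socs3 had a TSS peak in 2 libraries and Cish in 1.

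**Figure D1:**
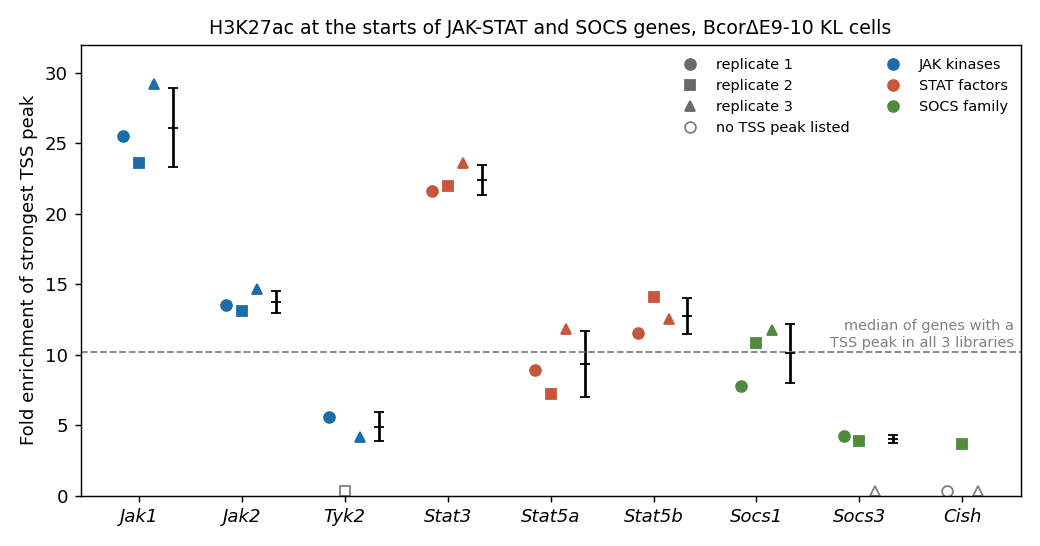
Fold enrichment of the strongest TSS peak (linear axis) of each of the 9 genes in replicates 1, 2 and 3, with the mean and SD at the right of each gene with 2 or more values; hollow grey points mark libraries with no TSS peak and have no fold enrichment. Jak1 (23.6 to 29.2) and Stat3 (21.6 to 23.6) stand above the other 7 genes in every library, and the lowest listed values, at Tyk2, Socs3 and Cish, are between 3.64 and 5.60.

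Jak1, a kinase used by interferon receptors and by the gp130 and common gamma chain cytokine receptors, lies at chr4:101152367-101265282 on the minus strand and had the highest TSS fold enrichment of the 9 genes. Its TSS fold enrichment was 25.5 in replicate 1, 23.6 in replicate 2 and 29.2 in replicate 3 (26.1 ± 2.83, SD, n = 3). These values were at the 96.4th, 96.7th and 97.5th percentile of the genes with a TSS peak in the same library. The summit held 83, 84 and 100 fragments (exact Poisson 95% intervals 66.1 to 103, 67.0 to 104 and 81.4 to 122, which cover counting error only). By summit fragments and by −log10 p Stat3 came first, with at least 103 fragments and a −log10 p above that of Jak1 in each library (107, 114 and 124 at Stat3). Jak1 reached this height in 1 compact peak of 1002, 958 and 945 bp, between the 48.5th and the 57.4th percentile of covered length. Only 12, 29 and 20 bp of it lay upstream of the start, and the summit was 209, 228 and 241 bp into the gene.

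Jak2, the kinase of the erythropoietin and interleukin 3 receptors, lies at chr19:29251828-29313080 on the plus strand. Its TSS fold enrichment was 13.5, 13.1 and 14.6 (13.8 ± 0.787, SD, n = 3), at the 73.4th, 72.0th and 69.9th percentile. Its acetylation was lower than that of Jak1 in all 3 libraries but longer, covering 2643, 2024 and 2283 bp at the start (91.4th to 97.3rd percentile). It extended to both sides of the start, with 907 ± 59.1 bp upstream and 1410 ± 256 bp downstream (SD, n = 3), and the summit lay 390 to 396 bp upstream in each library. In replicate 2 the domain was listed as 2 peaks that left a short interval before the start.

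Tyk2, the kinase of the interferon alpha and interleukin 12 receptors, lies at chr9:21104068-21131243 on the minus strand and was the weakest of the 3 kinases. It had TSS peaks of fold enrichment 5.60 in replicate 1 and 4.16 in replicate 3, with 17 and 21 fragments at the summit, and none in replicate 2. The replicate 1 peak lay 980 bp into the gene from an internal start, and the 5′ end of the gene carried a peak in replicate 3 alone.

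Stat3, the factor activated by interleukin 6 and granulocyte colony-stimulating factor, lies at chr11:100885098-100939540 on the minus strand. Its TSS fold enrichment was 21.6, 22.0 and 23.6 (22.4 ± 1.05, SD, n = 3), at the 92.8th, 95.1st and 92.6th percentile, with at least 103 fragments at the summit in each library. The strong peak lay over and just inside the start, with the summit 178, 170 and 162 bp downstream. A separate weak peak upstream was listed in each library with a fold enrichment of 4.34, 3.68 and 3.37. The RefSeq promoter window of Stat3 printed above fell between these peaks, and 0 of its bases were inside a peak in any library.

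Stat5b and Stat5a, the factors used by interleukin 3 and erythropoietin signalling, are neighbours of Stat3 on chromosome 11. Stat5b (chr11:100780731-100850724, minus strand) and Stat5a (chr11:100859351-100885169, plus strand) have neighbouring starts and are transcribed away from one another, while Stat5a and Stat3 overlap at their 3′ ends. TSS fold enrichment of Stat5b was 11.6, 14.1 and 12.6 (12.7 ± 1.29, SD, n = 3), at the 64.3rd, 76.3rd and 60.5th percentile. TSS fold enrichment of Stat5a was 8.91, 7.22 and 11.9 (9.33 ± 2.34, SD, n = 3), at the 49.1st, 33.3rd and 56.9th percentile. Stat5b was above Stat5a in each library, and the ranges touch only in that the highest value of Stat5a (11.9) exceeds the lowest of Stat5b (11.6). The difference in length was larger, with 2287, 2434 and 3098 bp covered at Stat5b (95.1st percentile or higher) against 1229, 579 and 1301 bp at Stat5a. The length at Stat5b includes weaker peaks at an annotated internal start, and the peak at the 5′ start alone covered 1396 ± 358 bp (SD, n = 3).

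Socs1, which inhibits JAK kinases directly and limits interferon signalling, lies at chr16:10782240-10785536 on the minus strand. It was the only gene of the SOCS family here with a TSS peak in all 3 libraries. Its TSS fold enrichment was 7.76, 10.8 and 11.7 (10.1 ± 2.09, SD, n = 3), at the 39.6th, 60.2nd and 56.4th percentile, so it lay near the middle of all acetylated starts. Like the summit of Jak2, and in contrast to those of Jak1, Stat3, Stat5a and Stat5b, its summit was upstream of the start in each library, by 352, 440 and 412 bp. Over all 9471 genes with a TSS peak in 3 libraries, the summit was downstream in 74.4%, 74.8% and 74.4%. The region with the summit also lies within 2.5 kb of the start of Tnp2, a spermatid nuclear protein gene, so the peak cannot be given to Socs1 alone by position.

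Socs3, the inhibitor of gp130 and granulocyte colony-stimulating factor receptor signalling, lies at chr11:117966079-117970047 on the minus strand. Its listed TSS fold enrichment was 4.25 in replicate 1 and 3.85 in replicate 2, with 12 and 11 fragments at the summit, and no peak was listed in replicate 3. These values were at the 8.55th and 5.03rd percentile. In replicate 1 the peak covered 169 of the 300 bases of the promoter window and ended short of the motif, and in replicates 2 and 3 the window held no peak.

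Cish, the inhibitor of STAT5 signalling named for its induction by cytokines, lies at chr9:107296026-107302784 on the plus strand. It had 1 TSS peak, in replicate 2, of fold enrichment 3.64 with 10 fragments at the summit (exact Poisson 95% interval 4.80 to 18.4). None of the 3 libraries had a peak over the motif pair shown above. The counts at Socs3 and Cish are near the least number of fragments listed, so a missing peak in a library does not show a difference between mice.

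**Figure D2:**
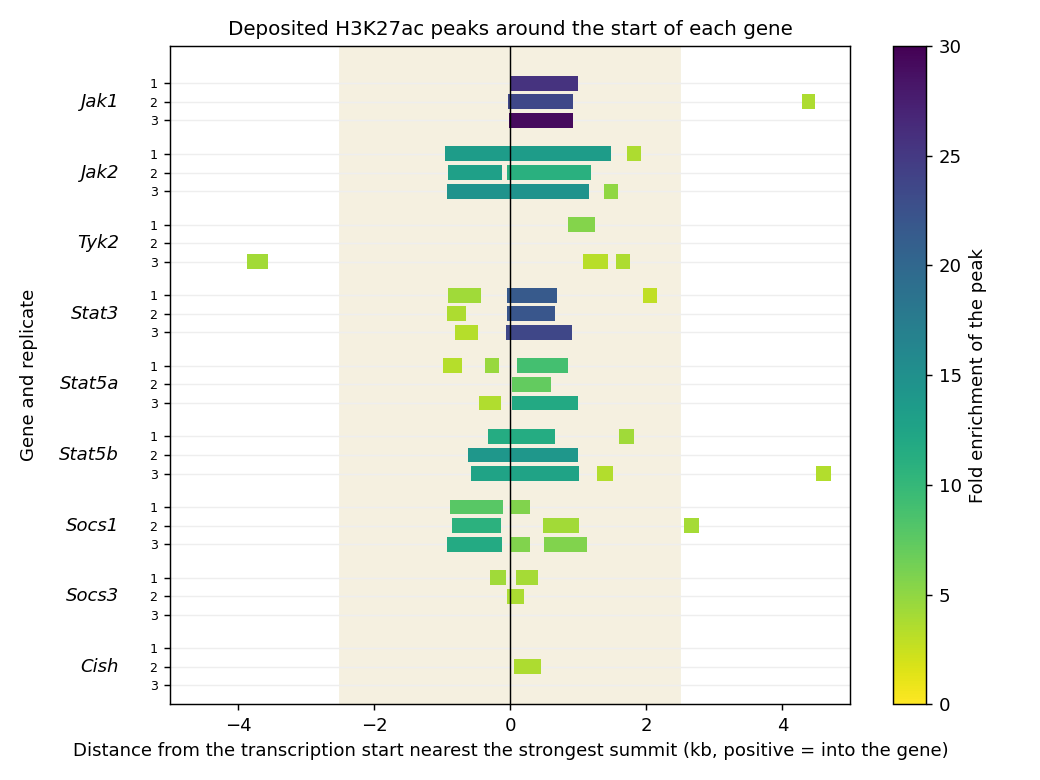
Deposited H3K27ac peaks within 5 kb of 1 start of each gene (the protein-coding start nearest its strongest summit), one line per replicate. The horizontal axis is the distance from the start in kb with positive values inside the gene, the shaded band is the 2.5 kb window, and colour gives the fold enrichment of the peak. Jak1 and Stat3 show short strong peaks at or just inside the start, Jak2 and Stat5b longer domains on both sides, Socs1 its strongest peak upstream, and Cish 1 weak peak in replicate 2.

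The 6 genes with a TSS peak in each library were then put in order of mean fold enrichment, and neighbours were compared within each library. The order was Jak1, Stat3, Jak2, Stat5b, Socs1 and Stat5a. Jak1 exceeded Stat3 in 3 of 3 libraries by a mean of 0.22 ± 0.11 on the log2 scale (SD, n = 3), and Stat3 exceeded Jak2 in 3 of 3 by 0.70 ± 0.04, the widest step. Stat5b exceeded Socs1 in 3 of 3 libraries by 0.35 ± 0.24, but the ranges of their values overlapped. Jak2 and Stat5b (0.11 ± 0.19, higher in 2 of 3) and Socs1 and Stat5a (0.12 ± 0.41, higher in 1 of 3) did not differ beyond the spread between libraries. The two-sided exact sign-flip permutation test over 3 libraries cannot give a p below 0.25, which the 3 pairs with the same order in every library reached (0.417 after Benjamini-Hochberg adjustment over the 5 pairs), so none of the steps passes a threshold of 0.05.

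Order by covered length was different. Stat5b (2606 ± 432 bp) and Jak2 (2317 ± 311 bp) came first, followed by Socs1 (1344 ± 341 bp), Stat3 (1246 ± 226 bp), Stat5a (1036 ± 398 bp) and Jak1 (968 ± 29.9 bp; all SD, n = 3). Jak2 exceeded Socs1 in 3 of 3 libraries with ranges that did not overlap, whereas Stat5b and Jak2 changed places between libraries. Jak1, the highest by fold enrichment, had the lowest mean length when all TSS peaks were summed, although Stat5a was shorter in replicate 2, and this place did not hold under other definitions. With the strongest TSS peak alone, Jak1 (968 bp) was longer than Stat3 (803 bp), Stat5a (771 bp) and Socs1 (765 bp). With the starts of all annotated transcripts it covered 1913 bp, against 1344 bp at Socs1 and 1036 bp at Stat5a, and Stat3 (2430 bp) then exceeded Jak2. With peaks of a −log10 q of at least 5 alone, Stat5a (838 bp) was shorter than Jak1 and Stat3 (966 bp) was level with it. Jak2 and Stat5b, the longest with all TSS peaks summed, were also the genes with the most GC-rich promoter windows among the 9. However, the length of Stat5b includes peaks at its internal start, whose window had the lowest GC content of all member windows (47.3%). In strength and length together, the genes nearest to Jak1 over 6 values (log2 fold enrichment and log2 covered length in each library) were Nr1h2, Kat6b and 9530068E07Rik, at distances of 0.26, 0.26 and 0.31, where the median distance to all 9471 genes was 2.75. Those nearest to Stat5b were Dock8, L3mbtl3 and Srsf3, at 0.33, 0.36 and 0.40, with a median of 2.78. Dock8 covered 2295, 2723 and 3172 bp and had a fold enrichment of 12.5, 15.3 and 14.7.

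**Figure D3:**
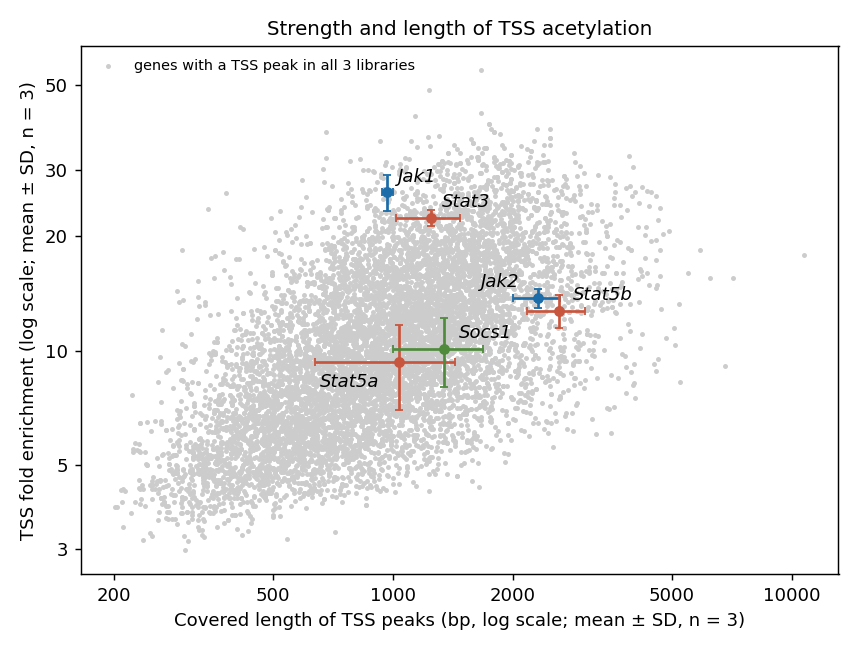
TSS fold enrichment against covered length (both log axes) for the 9471 genes with a TSS peak in all 3 libraries (grey, mean of 3) and the 6 members of that set (coloured, mean and SD, n = 3). Jak1 and Stat3 lie high at a short to middle length (968 and 1246 bp), Jak2 and Stat5b far to the right (2317 and 2606 bp), and Socs1 and Stat5a within the body of the cloud.

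Beyond the starts, the windows of the gene bodies and 20 kb to each side held 79 merged regions, of which 25 were found in all 3 libraries (31.6%, Wilson 95% interval 22.4% to 42.5%), beside 41.3% of all 34595 regions. Intervals cover counting only, and regions at 1 gene are not independent. The windows of Stat5b, Stat5a and Stat3 overlap, and a region in several windows is counted once in these totals. 25 regions lay at the start of a member (8 in all 3 libraries), 9 at the start of another gene (7 in all 3) and 45 were distal, outside 2.5 kb of any protein-coding start. 10 of the 45 distal regions were found in all 3 libraries (22.2%, interval 12.5% to 36.3%), beside 18.6% of all distal regions. That number fell to 2 with a −log10 q of at least 5, to 4 with a reciprocal overlap of 50% and to 6 with the gene bodies alone. It also depended on the starts used. It was 7 with the starts of all annotated transcripts, 9 with a 5 kb TSS window and 13 with only the 5′ end of each gene. The interval of the distal share includes that background, and that of the share over all regions does as well.

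**Figure D4:**
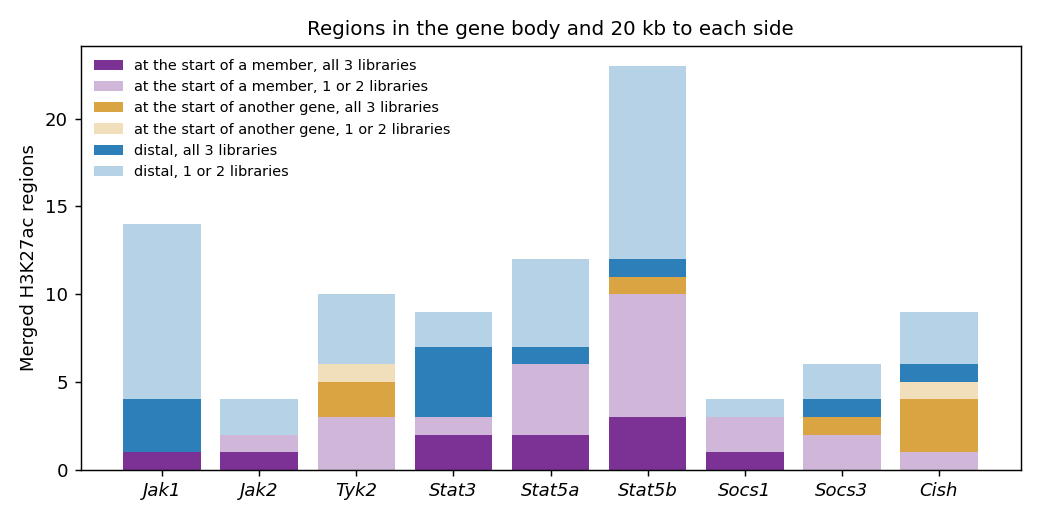
Number of merged H3K27ac regions in the window of each gene (bars from 0), by position and by whether a peak was listed in all 3 libraries (solid) or in 1 or 2 (pale). Stat5b has the most regions (23, of which 5 in all 3 libraries), Stat3 the most distal regions in all 3 (4), and Jak2, Tyk2 and Socs1 have no distal region in all 3; the windows of Stat5b, Stat5a and Stat3 share regions.

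Stat3 held the most distal regions in all 3 libraries, 4, a number that 0.718% of protein-coding genes reach or exceed in windows of their own length. Among genes with a TSS peak in all 3 libraries, as Stat3 has, the share was 1.52%. Its window of 94.4 kb is longer than the median of 57.4 kb, and per 100 kb it held 4.24 such regions, a density that 0.883% of genes reach or exceed. The strongest was an intronic region near the 3′ end of Stat3, chr11:100891009-100892474, of fold enrichment 8.05, 5.83 and 13.1 (9.0 ± 3.73, SD, n = 3), which also falls in the window of Stat5a. A further intronic region lay 7.73 kb inside the Stat3 start (5.82, 2.63 and 3.65), and 2 intergenic regions lay 12.5 and 13.2 kb upstream (3.37 ± 0.262 and 4.12 ± 0.747, SD, n = 3). The 2 intergenic regions (chr11:100951740-100952298 and chr11:100952408-100953000) are next to each other and were counted separately. The count of 4 and its shares thus depend on how peaks were merged. They also depend on which starts are counted. With the starts of all annotated transcripts, the covered length at Stat3 starts rose from 1246 to 2430 bp. The other distal regions inside the gene could not add that much. The region near the 3′ end therefore lies near an annotated Stat3 start that is not of a protein-coding transcript. Counts of single genes were not repeated under that setting, where the total over all windows fell from 10 to 7. Nor were they repeated under the stricter settings, where it fell to 2 or 4. The mean of the region near the 3′ end was close to that of the Stat5a start (9.33), within the SD of either, while the means of the other 3 regions were between 3.37 and 4.12.

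Jak1 held 14 regions in a window of 153 kb, 13 of them distal and all within its introns. 3 distal regions were found in all 3 libraries, a number that 1.56% of all genes and 3.08% of those with a TSS peak in all 3 libraries reach or exceed. Per 100 kb, 4.45% of all genes reach or exceed its density. 2 of these lay next to each other deep in the gene, 79.9 and 79.0 kb from the start, with mean fold enrichments of 4.82 ± 0.457 and 3.87 ± 0.660, and the third lay 57.7 kb from the start (4.21 ± 0.308; SD, n = 3). In each library they were below the Jak1 start. With the starts of all annotated transcripts, the covered length at Jak1 starts rose from 968 to 1913 bp. Part of this intronic acetylation thus lies near annotated starts that are not of protein-coding transcripts. Stat5b held 12 distal regions, all intronic, but only 1 (chr11:100828808-100829565) in all 3 libraries, with a fold enrichment of 3.31, 4.0 and 3.77. Its internal start, chr11:100821921-100822623, was acetylated in all 3 at 4.51, 4.40 and 5.86, below the 5′ start in each library.

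At Socs3, Cish and Tyk2, the genes without a TSS peak in all 3 libraries, the windows still held stronger acetylation elsewhere. In the Cish window an intergenic region at chr9:107312287-107313360, 16.3 kb downstream of the Cish start, had a fold enrichment of 7.85, 8.60 and 9.75 (8.74 ± 0.958, SD, n = 3). On the other side of Cish, the starts of Mapkapk3, a kinase gene, were acetylated in all 3 libraries, the strongest at 12.7, 11.4 and 15.2 only 6.80 kb upstream of the Cish start. In the Socs3 window the start of Pgs1, a cardiolipin synthesis gene, had 12.5, 11.8 and 14.6, and an intronic region of Pgs1 21.1 kb upstream of the Socs3 start had 4.09, 4.97 and 3.93. Which of the neighbouring genes these regions act on was not tested. In the Tyk2 window the 2 regions in all 3 libraries were the starts of Raver1 (13.3, 11.4 and 13.3) and Cdc37 (10.6, 5.83 and 9.47), both higher than any Tyk2 peak. Near Stat5b the start of Ghdc had 4.78, 4.30 and 3.69.

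The STAT motif was searched in the 300 bp around the strongest summit of each of the 79 regions. It was found in 8 (10.1%, Wilson 95% interval 5.22% to 18.7%), beside 7.58% of all regions, and in 1 of the 10 distal regions found in all 3 libraries, beside 9.12% of all such regions. 3 of the 8 were regions found in all 3 libraries: the Stat5a start, the Socs1 start and the intronic Pgs1 region in the Socs3 window. The Stat5a match lies 355 bp inside the Stat5a start and 139 bp from the summit, and the Socs1 match 449 bp upstream of the Socs1 start and 37 bp from the summit. The Pgs1 region holds 2 matches, 78 and 64 bp from its summit. Peaks covered the Stat5a and Socs1 matches in all 3 libraries. At Pgs1 they covered 1 match in all 3 libraries and the other in 2. The sites at Stat5a and Socs1 are shown on the strand of the gene and the Pgs1 window on the plus strand, with the motif in capitals, since they are the matches in regions found in every library.

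Stat5a start (chr11:100860825-100860849, plus strand): agcccagggcTTCCCCGAAgacagc
Socs1 start (chr16:10785971-10785999, minus strand): gctagccgggTTCCAAGAAgggtcgagat
Pgs1 intron in the Socs3 window (chr11:117990158-117990457, plus strand): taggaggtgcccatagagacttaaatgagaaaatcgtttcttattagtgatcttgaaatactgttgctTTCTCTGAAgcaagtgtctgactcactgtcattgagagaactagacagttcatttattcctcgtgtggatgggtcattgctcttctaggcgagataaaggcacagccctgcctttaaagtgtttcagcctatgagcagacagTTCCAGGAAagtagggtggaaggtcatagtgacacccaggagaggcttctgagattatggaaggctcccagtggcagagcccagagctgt

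At Socs1 the match near the summit lay upstream of the RefSeq window, whereas at Cish the promoter window with 2 matches carried no peak over them. The searches differ, since summit windows were placed on peaks and promoter windows were not. The match at Socs1 was therefore near acetylation by design of the search. A further match lay 57 bp upstream of the GENCODE start of the protein-coding Socs3 transcript (chr11:117969186) and was covered by a peak in 0 libraries. That start differs from the RefSeq start used above, and this match lies downstream of the RefSeq promoter window.

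To set the members among the rest of the pathway, 43 other genes in 4 lists were examined. 38 had a TSS peak in all 3 libraries (88.4%), beside 43.3% of all protein-coding genes. A further 2 had one in 1 or 2 libraries and 3 in none. All 4 other JAK and STAT genes had one in each library, the highest being Stat6, the factor of interleukin 4 signalling (20.1, 19.5 and 20.8), and Jak3, the kinase of the common gamma chain receptors (8.19, 8.60 and 10.7). Of 14 other SOCS genes and negative regulators 13 had one, led by Socs4 (20.7 ± 2.63) and the STAT inhibitor Pias1 (20.5 ± 0.734; SD, n = 3). Socs2, a target of STAT5, had no TSS peak in any library, as Cish had none in replicates 1 and 3.

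Of 12 receptor genes, 9 had a TSS peak in each library. The highest were Ifnar2, a chain of the interferon alpha receptor (18.1 ± 1.86), and Il3ra, the interleukin 3 receptor alpha chain (15.8 ± 2.07; SD, n = 3). The erythropoietin receptor gene Epor and Csf2rb2, an interleukin 3 receptor chain, had no TSS peak in any library. Csf2rb, the beta chain shared by the receptors of interleukin 3 and granulocyte-macrophage colony-stimulating factor, had one in replicates 2 and 3 (3.31 and 4.70). Csf2rb and Csf2rb2 are similar in sequence, and whether reads from either were placed uniquely was not tested. Among 13 genes commonly described as STAT3 or STAT5 targets, 12 had a TSS peak in each library, with the highest at Bcl6, the repressor that Bcor binds (28.5, 23.4 and 31), and Mcl1, a survival gene of the Bcl2 family (27.6, 23.1 and 27.7). Id1 had one in replicates 2 and 3 only (3.33 and 5.57). Medians of the mean fold enrichment were taken only over genes with a TSS peak in all 3 libraries. They were 7.89 over the other JAK and STAT genes, 11.6 over the SOCS genes and negative regulators, 8.71 over the receptors and 7.98 over the targets. The median was 13.3 over the 6 members and 10.2 over all 9471 such genes. The members left out were lower, Tyk2 and Socs3 at 4.88 and 4.05 (means of 2 libraries) and Cish at 3.64 (1 library), so the value of 13.3 does not describe all 9.

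**Figure D5:**
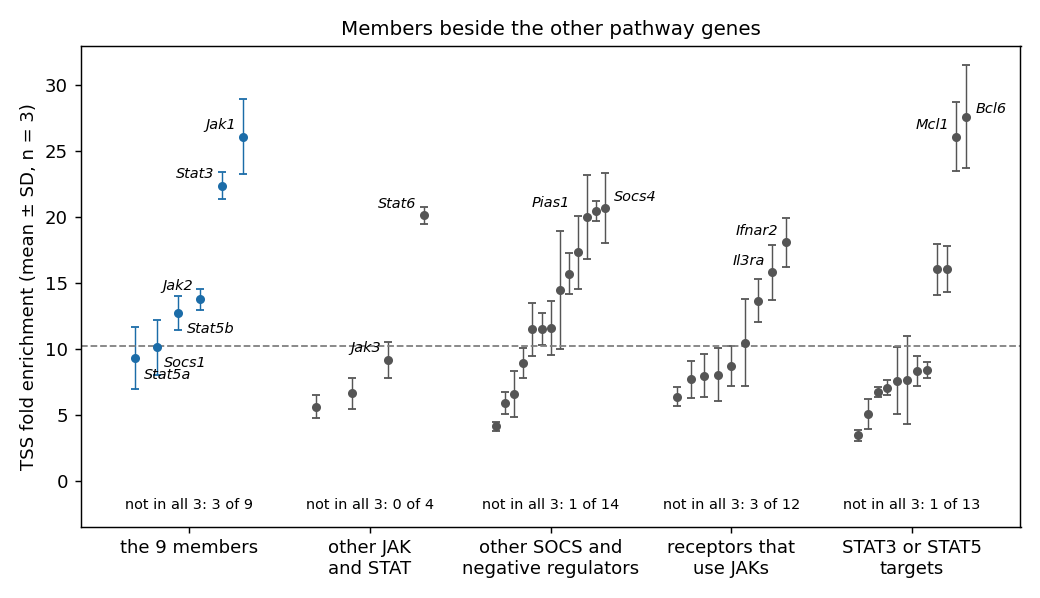
TSS fold enrichment (mean and SD, n = 3) of the 6 of 9 members and 38 of 43 other pathway genes that had a TSS peak in all 3 libraries. Genes are ordered within each list, with the number that lacked one written below. The dashed line is the median over all genes with a TSS peak in all 3 libraries (10.2). These 6 members span 9.33 to 26.1, and the 38 other genes span 3.44 to 27.6, with 18 of 38 above the dashed line.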

How the data were processed

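ChIP-seq for H3K27ac in BcorΔE9-10 KL cells was analysed in 3 libraries. The other 19 samples of the series were not analysed here. Per the methods and the submitters' processing notes, the authors trimmed reads with cutadapt 1.7, aligned them with Bowtie2 to GRCm38, discarded duplicates, and ran MACS2 2.1.1 on each library by itself. The control used and the peak calling parameters are not given in the sources used here.

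The deposited lists hold, for each summit, a fold enrichment (a ratio to the local background), the −log10 of the p-value and of the q-value, and a score, which was not used. Where several rows shared an interval, 1 peak was kept with the highest fold enrichment, on chromosomes 1 to 19, X and Y. Fragments at each summit were solved from fold enrichment and p-value (100% of rows within 0.001 of the −log10 p), and depth from the background, assuming fragments of 200 bp and the mouse genome size that MACS2 uses by default. No molecular identifiers were used, and counting error alone enters the intervals.

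Gene models were GENCODE M21 and promoter sequences RefSeq GRCm38.p6, which equalled the genome in all 11 member windows. TSS fold enrichment is the highest of the TSS peaks and covered length their summed length. Peaks of different libraries were merged into regions from 1 bp of overlap. Ratios within libraries were tested with a two-sided exact sign-flip permutation test. Shares carry Wilson 95% intervals. Python 3.11.15 with numpy 2.4.6, pandas 2.3.3, scipy 1.17.1 and statsmodels 0.14.6 was used, and the code was tested on simulated data.

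The text names the 9 members, pathway genes without a TSS peak in all 3 libraries, the 2 highest of each list, genes whose start lies in a member window with a peak, and the 3 genes nearest to the members with the highest and the longest start. Markers were checked by list, and 1 further list and 2 pathway genes are not reported here. The members and lists were chosen with earlier results of these data known. Alternatives covered the q threshold, the TSS definition and window, the gene window, the overlap rule, the measure of strength and leaving out each library.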

Additional observations from a re-analysis of the deposited data

How the results depend on the processing

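The number of genes with a TSS peak in all libraries stayed at 6 or 7 of 9 under every alternative tried, the 7th gene being Tyk2 with a 5 kb TSS window or without replicate 2, and Socs3 without replicate 3. Leaving out 1 library gave 6 to 7 genes, 66 to 72 regions, 31 to 32 regions and 13 to 14 distal regions in all libraries kept, 38 to 40 other pathway genes and 3 to 6 neighbouring pairs in the same order. The upper value of 6 came without replicate 2, where all 6 of 6 pairs kept 1 order, against 3 of 5 in the main order. That order was not the main one, since genes were sorted anew by the libraries kept. Tyk2 entered it, and Stat5a (10.4) stood above Socs1 (9.75). Agreement in fewer libraries is also easier to reach. The number of distal regions in all 3 libraries depended most on the settings. With a −log10 q of at least 5 there were 36 regions, 14 in all 3 libraries, of which 2 were distal. With the gene body alone there were 12 regions in all 3 libraries, 6 of them distal, and with a reciprocal overlap of 50% there were 4 distal regions. Other TSS definitions and windows gave 7 to 13 distal regions in all 3 libraries. Fold enrichment of single genes moved by less than 1 SD in all 69 combinations of gene and setting tried. This count cannot show stability, because leaving out 1 library cannot move such a mean by 1 SD. In the other settings the strongest peaks were mostly the same. Only Tyk2 changed, to 4.58 with a 5 kb TSS window and to 4.16 with the 5′ end of the gene alone. Socs3 and Cish had no value with a −log10 q of at least 5. Covered length moved by more than 1 SD in 12 of 78 combinations. Leaving out 1 library cannot move this mean by 1 SD either, and all 12 came from the other settings. By −log10 p, Stat3 ranked above Jak1. Genes were compared within each library. No paired analysis was possible because there are no groups to pair, the 3 libraries being a single group.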
